A study of Homo sapiens with 12 samples.

Results

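Mucins are large glycoproteins whose serine- and threonine-rich repeats carry dense O-linked sugars, and pancreatic cancers are known for making them outside their normal pattern. The group described here is the 8 listed mucin genes MUC1, MUC2, MUC4, MUC5AC, MUC5B, MUC13, MUC16 and MUC20, taken by name from the 57820 gene IDs of the count files. The secreted members MUC2, MUC5AC and MUC5B form the gel of mucus. MUC1, MUC4, MUC13 and MUC16 span the cell membrane, where their cytoplasmic tails and their epidermal growth factor-like or SEA domains tie them to receptor signalling. MUC20 is a smaller membrane-associated member. Of the 8 genes, 6 passed the filter on low counts and were tested among 16999 genes, while MUC2 and MUC16 did not pass it.

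AsPC-1, a human pancreatic cancer line in long use, was the only source of RNA, in 4 groups of 3 replicates (A, B and C). Cells received either a scrambled control siRNA (siControl) or one against ARNT (siARNT), were split on the next day, and kept in normoxia (21% O2) or moved to hypoxia (1% O2) for 24 h, with harvest 48 h after transfection. All groups thus carry an siRNA and transfection reagent, all come from 1 line, and RNA was poly(A)-selected. ARNT is the shared partner of the oxygen-regulated HIF alpha subunits, so the design asks which hypoxia changes depend on it. The labels do not say that replicates were cultured independently beyond triplicate wells, so p-values measure the spread between these samples, which may be technical.

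Gene counts totalled 38.5 to 84.3 M per library. ARNT itself, at 60.7 to 72.2 CPM (counts per 1e6 counts, scaled by TMM) in the 6 siControl libraries and 12.8 to 16 CPM in the 6 siARNT libraries, matched the siRNA labels. All 6 epithelial markers, the keratins among them, were detected, with a sum of 3690 to 8070 CPM per library. The summed acinar markers reached at most 0.0429 CPM, the fibroblast markers 1.67 CPM, the immune markers 1.76 CPM and the endothelial markers 0.966 CPM. All 5 acinar markers, CDH5 and CD3E had at most 3 counts in every library. Of 12 HIF targets listed as a positive control, 12 rose with hypoxia in siControl (median log2 fold change 2.62), and 5 rose with hypoxia in siARNT. These comparisons called 25.3% and 4.09% of all tested genes.

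Sequence bears on how some of these genes can be counted, because runs of tandem repeats can exceed a read. In the longest GENCODE 29 transcript of MUC1 (chromosome 1, 155185824 to 155192916, minus strand, GRCh38), the commonest stretch of 60 bases, the unit of the tandem repeat that carries the O-linked sugars, occurs 19 times. It is shown because the GC content of this longest transcript, copies included, enters a correction of the MUC1 counts.

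MUC1 repeat: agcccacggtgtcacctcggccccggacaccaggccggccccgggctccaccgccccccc

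A read of 125 bases, the length the labels give, would fit more than 1 place in that transcript at 27.9% of positions. The same share was 15.3% for MUC5B, 14.7% for MUC20, 11.4% for MUC4, 10.1% for MUC2, 7.39% for MUC5AC, 0.201% for MUC16 and 0% for MUC13. For MUC20, 51.8% of positions also occur in transcripts of another gene, which are those of the pseudogene MUC20P1 and of MUC20-OT1, and MUC20-OT1 shares 42.8% of the exon bases of MUC20 on the same strand. MUC20 counts are therefore uncertain as to the gene. MUC5B shares 2.33% of its exon bases with MUC5B-AS1 on the opposite strand.

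The region before the start of MUC1 is shown because MUC1 was the member that rose with hypoxia, and that of MUC13 because it is the most abundant member. Both are from RefSeq (GRCh38.p14, read 5′ to 3′ on the minus strand), on chromosome 1 from 155192917 to 155193165 and on chromosome 3 from 124934752 to 124935001. Capitals mark the letters of a GC box (GGGCGG) or a TATA box (TATAAA) on either strand. The core letters of the HIF binding element (ACGTG or GCGTG, either strand) were searched as well. The MUC13 window lies inside the span that GENCODE 29 gives the gene and in none of its exons.

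MUC1 upstream: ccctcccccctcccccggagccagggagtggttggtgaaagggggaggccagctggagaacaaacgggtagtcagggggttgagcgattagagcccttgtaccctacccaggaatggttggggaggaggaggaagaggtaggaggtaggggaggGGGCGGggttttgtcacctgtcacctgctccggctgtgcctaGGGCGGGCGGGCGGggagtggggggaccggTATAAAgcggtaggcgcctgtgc
MUC13 upstream: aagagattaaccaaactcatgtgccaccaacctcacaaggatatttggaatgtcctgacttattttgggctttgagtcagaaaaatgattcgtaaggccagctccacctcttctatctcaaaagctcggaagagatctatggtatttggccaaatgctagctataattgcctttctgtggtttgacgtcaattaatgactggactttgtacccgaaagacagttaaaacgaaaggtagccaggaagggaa

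The MUC1 window held 4 GC boxes, 3 of them overlapping, and 1 TATA box, whereas the MUC13 window held none of these motifs. Neither window held the HIF core letters, which says only that they are not in these windows. Among 35116 upstream windows of 250 bases, 43.2% held ACGTG or GCGTG, 42.6% held GGGCGG and 10.7% held TATAAA. Windows were also given for MUC2, MUC4 and MUC16, and that of MUC4, which GENCODE 29 places partly in an exon of the gene, held 1 HIF core match.

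By GENCODE 29 (GRCh38), MUC4 lies on chromosome 3 from 195746765 to 195812277, close to MUC20 at 195720882 to 195741123, and MUC13 on chromosome 3 from 124905442 to 124953819. MUC2 (1074875 to 1110511), MUC5AC (1157953 to 1201138) and MUC5B (1223066 to 1262172) follow each other on chromosome 11, and MUC16 lies on chromosome 19 from 8848844 to 8981342. MUC13 was by far the most abundant of the 8 mucins per length of exon. In normoxia siControl it stood at 60.1 CPM per kb (mean of n = 3), followed by MUC1 at 3.5, MUC5B at 0.229, MUC20 at 0.209, MUC4 at 0.0679 and MUC5AC at 0.0144 CPM per kb. Only MUC5B and MUC20 overlapped among these neighbours. This order of the 6 members was the same in the other 3 groups. There the ranges of MUC5B and MUC20 overlapped in hypoxia siControl and were apart in both siARNT groups. Among other mucin genes, the membrane mucin MUC17 overlapped MUC13 in normoxia siControl (63.3 CPM per kb) and in hypoxia siARNT (78.4 against 94.1), was lower than MUC13 in normoxia siARNT (75.8 against 83.4) and was higher in hypoxia siControl (81.9 against 65.1).

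**Figure D1:**
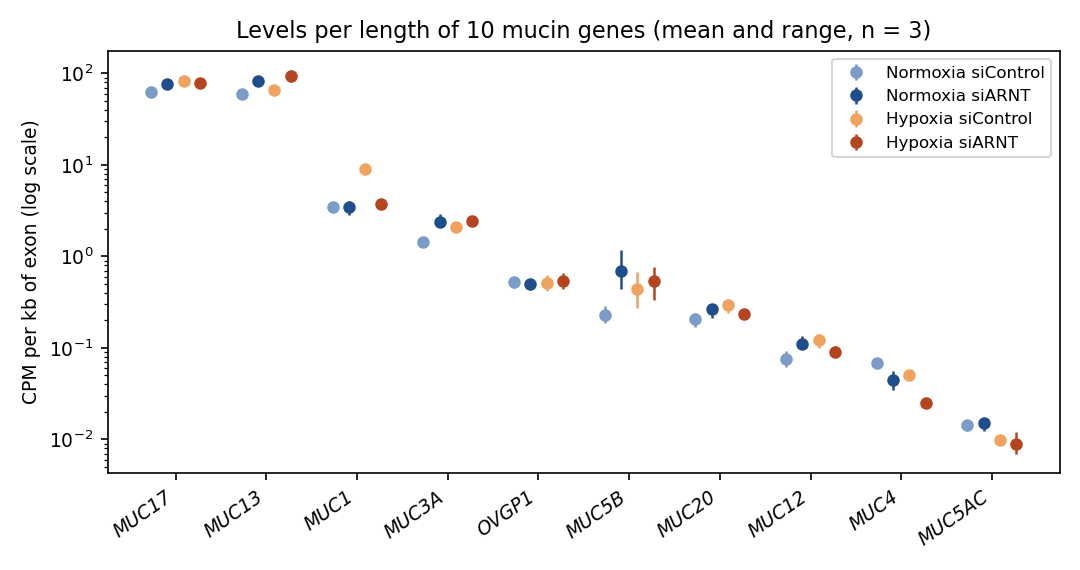
Level of 10 mucin genes in CPM per kb of exon on a log axis, with points for the mean and lines for the range of 3 libraries in each of the 4 groups. MUC17 and MUC13 lie near 60 to 94.1 CPM per kb, and MUC1 stands apart upward in hypoxia siControl at 8.92.

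MUC2, the gel mucin of the intestine, and MUC16, the membrane mucin that carries the CA125 antigen, were close to the limit of detection. MUC2 had 1, 2 and 0 counts in normoxia siControl, 8, 11 and 3 in normoxia siARNT, 2, 0 and 2 in hypoxia siControl and 2, 1 and 1 in hypoxia siARNT. Normoxia siARNT was thus the group with the most MUC2 reads, 22 against 3 in normoxia siControl, a ratio of 6.56 after scaling (95% exact interval 1.97 to 34.2, which covers counting error only). With no filter on low counts, MUC2 passed the test there (adjusted p 0.0453 in edgeR). Replicate B, with 11 of the 22 reads, was the library whose counts rose most with gene GC content (slope 0.424, described with MUC5B below). MUC2 is 61.6% GC, and the part of GC content in its change was not tested. MUC16 had 2, 0 and 0 counts in normoxia siControl and 4, 1 and 1 in hypoxia siControl. It had 0 counts in all 6 siARNT libraries, which allows up to 0.0154 CPM over normoxia siARNT and 0.0219 CPM over hypoxia siARNT (3 counts over each group).

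MUC1 was highest in hypoxia siControl. In replicates A, B and C it stood at 16.4, 17.1 and 16 CPM in normoxia siControl and at 42.6, 43.7 and 39.9 CPM in hypoxia siControl. In siARNT cells it stood at 15.9, 19 and 13.5 CPM in normoxia and at 17, 17.5 and 18.7 CPM in hypoxia. The 3 hypoxia siControl libraries were above the other 9, and the lowest of them held 2.11 times the highest of the rest. Within bulk RNA, more cells with the transcript and more transcript per cell cannot be told apart.

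The first comparison asked how hypoxia changes the mucins in siControl cells. MUC1 rose 2.55-fold (log2 fold change 1.35, SE 0.107, adjusted p 5.64e-06 in edgeR's quasi-likelihood test), and it was the only 1 of the 6 tested members to be called, in a comparison that called 25.3% of all tested genes. The gel mucin MUC5B was at 3.48, 5.36 and 3.92 CPM in normoxia and 7.17, 12.5 and 5.13 CPM in hypoxia, groups that overlapped (0.96, adjusted p 0.139). MUC4 was at 1.32, 1.49 and 1.54 CPM against 1.19, 0.945 and 1.07 CPM, with no overlap but no call (-0.43, adjusted p 0.103). MUC20 (0.50, adjusted p 0.0775), MUC5AC (-0.56, adjusted p 0.22) and MUC13 (0.12, adjusted p 0.398) were not called either. Under all 3 GC corrections MUC4 (adjusted p 0.0181 to 0.02) and MUC13 (0.0122 to 0.0262) were called here, at -0.52 and 0.18 with the first of them. The members' median log2 fold change was 0.31, beside 0.02 over all tested genes.

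**Figure D2:**
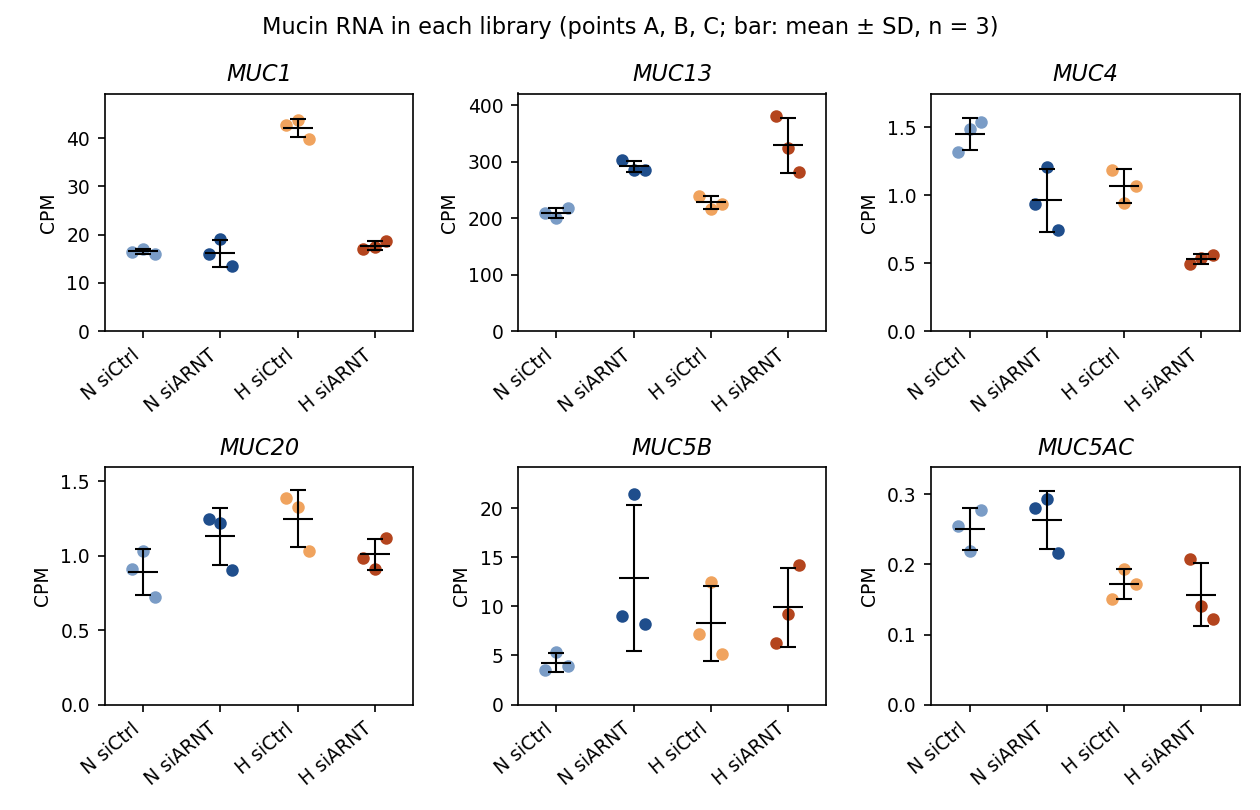
CPM of the 6 tested mucins in each library, on axes that start at 0, for normoxia (N) and hypoxia (H) with siControl (siCtrl) or siARNT. Points are replicates A, B and C and bars are mean ± SD (n = 3). MUC1 is high in hypoxia siControl alone, MUC13 is higher in both siARNT groups, and MUC4 is lowest in hypoxia siARNT.

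The second comparison asked the same of siARNT cells, where the members' median was -0.28, beside -0.04 over all tested genes. MUC4, a membrane mucin that partners the receptor ERBB2, was at 0.935, 1.21 and 0.746 CPM in normoxia siARNT and at 0.491, 0.539 and 0.56 CPM in hypoxia siARNT. Every hypoxia library was below every normoxia library, and MUC4 fell (log2 fold change -0.87, SE 0.199, adjusted p 0.0364 in edgeR). It was the only 1 of 6 members called, in a comparison that called 4.09% of all tested genes. The call was lost when only the 6 samples compared were fitted (adjusted p 0.175), with a block for the well transfected (0.0934), and without any 1 library of the 6 except normoxia siARNT replicate C. MUC1 in the same comparison had a log2 fold change of 0.14 (SE 0.106, adjusted p 0.49), with a 95% normal interval of -0.07 to 0.35. The GC corrections moved this MUC1 value to 0.55 (adjusted p 0.37), to 0.57 with the replicate block (0.247), and to 0.26 with the median GC of transcripts, which was called (0.0121). MUC5AC, the gel mucin of the stomach, was at 0.281, 0.293 and 0.216 CPM in normoxia siARNT and 0.208, 0.141 and 0.122 CPM in hypoxia siARNT, with no overlap and no call (-0.72, adjusted p 0.211).

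The interaction tested whether these responses differ, as the log2 hypoxia change of siARNT cells less that of siControl cells. For MUC1 the difference was -1.21 (SE 0.15, adjusted p 0.000955 in edgeR), and MUC1 was the only 1 of 6 members called, among 4.69% of all tested genes. MUC4 had a difference of -0.44 with a 95% normal interval of -0.96 to 0.08 (adjusted p 0.364), so its call in siARNT and not in siControl is not shown to be a difference. For MUC5B (-1.35, adjusted p 0.239), MUC20 (-0.67, adjusted p 0.184), MUC5AC (-0.16, adjusted p 0.877) and MUC13 (0.06, adjusted p 0.816) no difference was called. The members' median was -0.56, beside -0.02 over all tested genes.

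The MUC1 result held when each library was left out in turn, and it moved with a correction for GC content. In GENCODE 29 the longest MUC1 transcript, with its repeats, is 71.2% GC, while the median MUC1 transcript is 56.1% GC. The coordinates of the deposited events do not lie at GRCh38 positions. The MUC1 sequence behind the counts may thus differ from this transcript in its repeats and GC content, which was not tested. Corrected with the first value, the hypoxia change in siControl was 0.92 (adjusted p 0.083 in edgeR) and the interaction -0.38 (adjusted p 0.684). With this value and the replicate block they were 0.91 (adjusted p 0.0484) and -0.34 (adjusted p 0.642). The interaction was thus not called in either of these settings, both of which were planned. Corrected with the second, in a setting added after the data had been seen, they were 1.29 (adjusted p 5.46e-10) and -1.04 (adjusted p 1.9e-06).

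**Figure D3:**
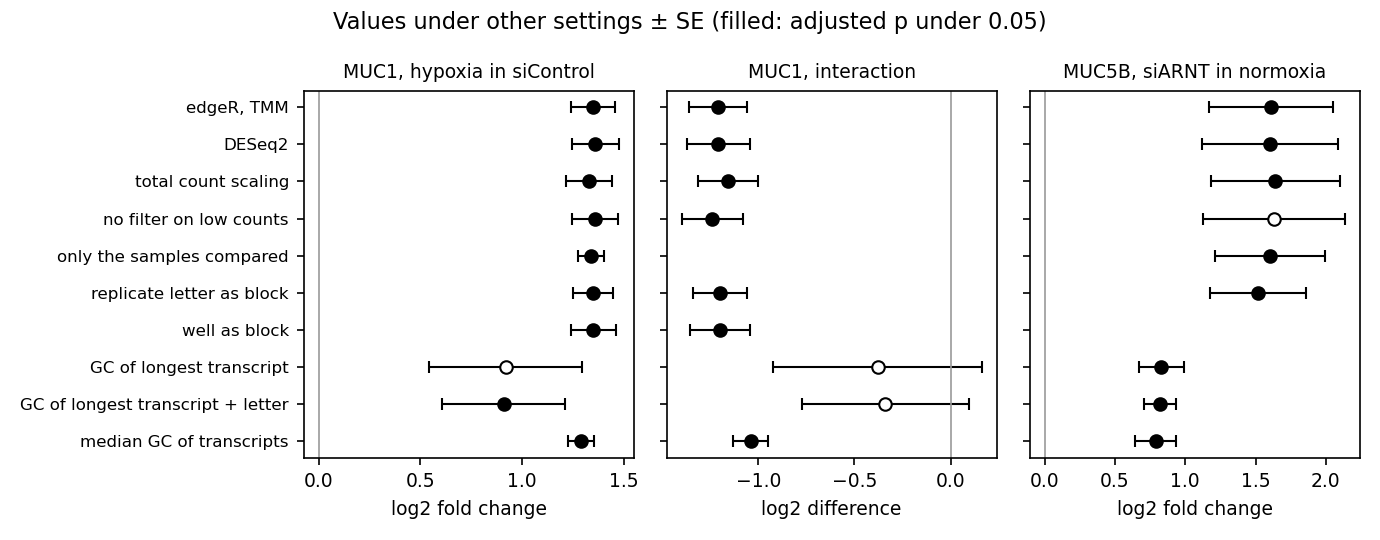
Log2 values ± SE of MUC1 and MUC5B under the edgeR test with TMM scaling and under other settings, with filled points for an adjusted p under 0.05 and an empty row where a setting was not run for that comparison. The MUC1 hypoxia change lies between 0.91 and 1.36 in the settings drawn, and the MUC5B change with siARNT in normoxia drops from 1.61 to between 0.79 and 0.83 in the 3 rows with a GC correction.

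The third comparison set siARNT against siControl cells in normoxia. It called 3 of the 6 members, MUC13 and MUC5B upward and MUC4 downward, in a comparison that called 20.2% of all tested genes. MUC13, a membrane mucin of the gut and pancreas epithelium, was at 210, 201 and 219 CPM in siControl and at 304, 286 and 286 CPM in siARNT. All 3 siARNT libraries were above all 3 siControl libraries, and MUC13 rose 1.39-fold (log2 fold change 0.47, SE 0.0917, adjusted p 0.00462 in edgeR). MUC4 fell by 0.58 on the log2 scale (SE 0.176, adjusted p 0.038), with no overlap between groups. That MUC4 call was lost with DESeq2 (adjusted p 0.054), with no filter on low counts (0.0983), with only the samples compared (0.0763), and without any 1 of the 6 libraries except normoxia siARNT replicate B. MUC1 had a log2 fold change of -0.03 (adjusted p 0.835), with a 95% normal interval of -0.24 to 0.17. The GC corrections moved MUC1 here, to -1.03 (adjusted p 0.0753), to -1.07 with the replicate block (adjusted p 0.0388, called) and to -0.25 with the median GC (adjusted p 0.00735, called). The members' median was 0.21, beside 0.01 over all tested genes. In the same comparison 5 of the 6 epithelial markers rose (sum 3690 to 4210 CPM in siControl and 5210 to 8070 CPM in siARNT) and 1 of the 4 immune markers, CD14, rose (sum 0.668 to 0.984 and 0.994 to 1.76 CPM, CD3E at most 3 counts). Their part in the mucin changes was not tested.

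MUC5B, a gel mucin, was at 3.48, 5.36 and 3.92 CPM in normoxia siControl and at 9.06, 21.5 and 8.2 CPM in normoxia siARNT. The groups did not overlap, but replicate B of siARNT was more than the other 2 put together. MUC5B rose 3.05-fold (log2 fold change 1.61, SE 0.442, adjusted p 0.0276 in edgeR). Without normoxia siARNT replicate B the change was 1.02 and was not called (adjusted p 0.0817), and the call was also lost without normoxia siControl replicate A (0.109) or C (0.097) and with no filter (0.109). MUC5B is 64.5% GC, and its level followed the GC slope of the library, which is the change of a library's log2 counts against the mean library per 10 points of gene GC content. In each of the 4 groups the order of the 3 libraries by MUC5B was their order by GC slope, and for MUC1 this was so in 3 of the 4. In replicates A, B and C the slope was 0.002, 0.424 and 0 in normoxia siARNT and -0.205, -0.036 and -0.172 in normoxia siControl. These groups did not overlap in slope, and they held the steepest (0.424) and the lowest (-0.205) of all libraries. GC slope and siRNA thus went together in this comparison, for other genes as well. With the GC correction the change was 0.83 (adjusted p 0.00145), which is smaller and still called. The same correction gave MUC5B a rise of 0.64 for hypoxia in siControl (adjusted p 0.0062), where the uncorrected test gave no call, and an interaction of -0.70 (adjusted p 0.0447).

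**Figure D4:**
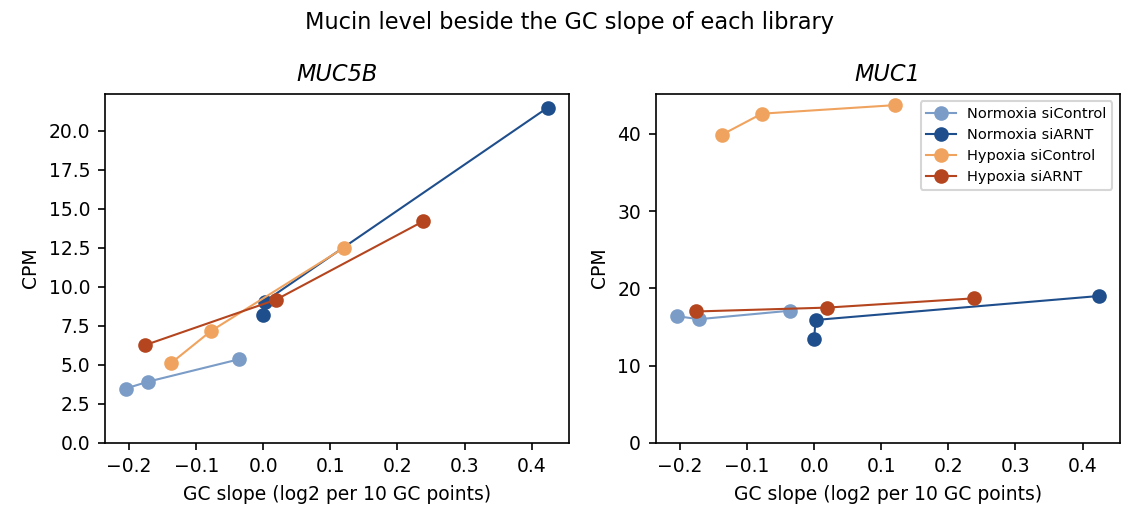
CPM of MUC5B and MUC1 against the GC slope of each library (log2 per 10 GC points), with lines joining the 3 libraries of a group. MUC5B is higher in libraries with a steeper slope in all 4 groups, and MUC1 follows the order of the slope in 3 of the 4.

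The fourth comparison set siARNT against siControl cells in hypoxia. It called 3 of the 6 members, MUC1 and MUC4 downward and MUC13 upward, among 29.1% of all tested genes. MUC1 fell by 1.25 on the log2 scale (SE 0.107, adjusted p 5.71e-06 in edgeR), to 0.421 of its siControl level. MUC4 fell by 1.02 (SE 0.199, adjusted p 0.00236), from 1.19, 0.945 and 1.07 CPM to 0.491, 0.539 and 0.56 CPM. MUC13 rose by 0.53 (SE 0.0918, adjusted p 0.00105), from 240, 217 and 226 CPM to 381, 325 and 282 CPM. In none of the 3 did the groups overlap, as was also so for the uncalled MUC4, MUC5AC and MUC20 under hypoxia in siControl. The share of all tested genes without overlap was not measured. All 3 calls were made in each of the 14 alternatives run for this comparison. MUC5B (0.26, adjusted p 0.699), MUC20 (-0.32, adjusted p 0.244) and MUC5AC (-0.09, adjusted p 0.912) were not called. The members' median was -0.20, beside 0.02 over all tested genes.

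**Figure D5:**
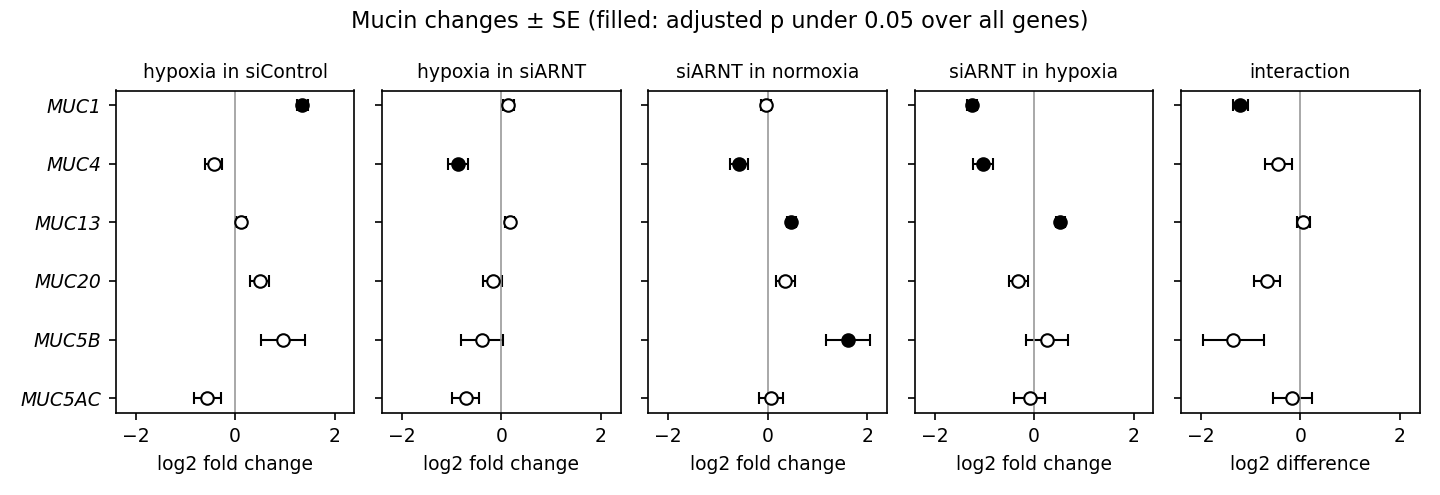
Log2 fold changes ± SE of the 6 tested mucins in the 4 comparisons and the interaction, with filled points for an adjusted p under 0.05 over all genes. MUC1 is called for hypoxia in siControl, for siARNT in hypoxia and for the interaction, and MUC4 is called in 3 of the 4 pairwise comparisons, all but hypoxia in siControl.

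Across the 12 libraries, members differed in which other genes they resembled, judged by the root mean square difference of centred log2 CPM among genes of at least 5 CPM. For MUC1, whose own SD was 0.589, the nearest were TP53INP2 (0.101), ANKZF1 (0.119) and the glycolytic enzyme PGK1 (0.121). PGK1 averaged 716 CPM in normoxia and 2140 CPM in hypoxia with siControl, and 752 and 809 CPM with siARNT. For MUC13 (own SD 0.277) they were BTRC (0.0577), ZNF468 (0.0672) and HS3ST3B1 (0.0704). MUC4 (own SD 0.521) was nearest to GCAWKR (0.171), B3GALT5-AS1 (0.173) and FGFBP1 (0.182), and MUC5B (own SD 0.735) to TMEM54 (0.111), SBF1 (0.165) and AGRN (0.172). The libraries are shared by all these genes, and no p is attached.

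Other mucin genes were measured beside the 8. Of 12 listed, 4 were tested, and 3 of these rose with hypoxia in siControl (median 0.45), where 25.3% of all tested genes were called. By edgeR 0 of the 4 were called for hypoxia in siARNT and for siARNT in hypoxia (0 at an unadjusted p under 0.05, 0 by DESeq2), and 0 for the interaction (3 unadjusted, 1 by DESeq2). Of all tested genes 4.09%, 29.1% and 4.69% were called there, in that order. MUC17 went from 851, 932 and 987 CPM to 1220, 1120 and 1240 CPM (0.37, adjusted p 0.00222). MUC3A, another membrane mucin, rose by 0.54 (adjusted p 0.00951), and MUC12 by 0.70 (adjusted p 0.027). With siARNT in normoxia MUC3A (0.72, adjusted p 0.00307) and MUC17 (0.26, adjusted p 0.024) rose too, where 20.2% of all tested genes were called. MUC12 lost its call without normoxia siControl replicate B or C or hypoxia siControl replicate A or B, and MUC17 lost its normoxia siARNT call without normoxia siControl replicate A or B or normoxia siARNT replicate B or C.

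The enzymes that build the O-linked sugars of mucins changed in both directions. Of 11 tested GalNAc-transferases, which attach the first sugar, siARNT raised 5 and lowered 1 in normoxia, and raised 5 and lowered 2 in hypoxia, where 20.2% and 29.1% of all tested genes were called. Hypoxia raised 1 and lowered 1 in siControl, where 25.3% were called. The list's median was -0.02 for hypoxia in siControl and 0.27 for siARNT in normoxia. GALNT2 rose with siARNT by 0.62 in normoxia (adjusted p 0.0017) and 0.75 in hypoxia (adjusted p 0.000181), and GALNT1 by 0.44 (adjusted p 0.00427) and 0.60 (adjusted p 0.000246). GALNT10 fell with hypoxia in siControl, from 11.4, 10.4 and 10.2 CPM to 6.03, 5.5 and 5.41 CPM (-0.92, adjusted p 2.79e-05). In hypoxia siARNT GALNT10 stood at 12.5, 13.2 and 12.1 CPM.

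Of 17 tested enzymes that extend or cap these sugars, hypoxia in siControl raised 4 and lowered 2, siARNT raised 5 and lowered 2 in normoxia, and it raised 3 and lowered 3 in hypoxia (medians 0.12, 0.20 and 0.01). The shares of all tested genes called were 25.3%, 20.2% and 29.1%. GCNT3, which makes the branched core of mucin sugars, rose with hypoxia in siControl (0.41, adjusted p 0.00244) and fell with siARNT in normoxia (-0.63, adjusted p 0.00027) and in hypoxia (-0.82, adjusted p 1.39e-05). CHST4, a sulfotransferase, fell with hypoxia both in siControl (-0.64, adjusted p 8.07e-05) and in siARNT (-0.60, adjusted p 0.00213). It was the only 1 of the 17 called for hypoxia in siARNT, where 4.09% of all tested genes were called. That call was lost when only the samples compared were fitted.

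Of the secretory genes that accompany mucus, 2 trefoil factors, small peptides secreted with mucins, were highest in hypoxia siControl, the group in which MUC1 was highest. TFF2 was at 1.95, 2.25 and 2.23 CPM in normoxia siControl and 10.6, 12.2 and 8.48 CPM in hypoxia siControl, and at 1.74, 2.29 and 1.81 CPM and 1.49, 2.13 and 1.97 CPM in siARNT. It rose with hypoxia in siControl by 2.29 (adjusted p 4.77e-06), with an interaction of -2.35 (adjusted p 0.000346). TFF3 rose by 2.29 (adjusted p 0.000117), with an interaction of -2.56 (adjusted p 0.00449). AGR2, a disulfide isomerase needed for mucin folding, fell with hypoxia in siControl (-0.68, adjusted p 0.000459). Of the 14 tested genes of this list, hypoxia in siControl raised 6 and lowered 2, and siARNT in hypoxia raised 5 and lowered 4 (medians 0.24 and 0.17), beside 25.3% and 29.1% of all tested genes called.

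Among 15 tested partners and sheddases of membrane mucins, EGFR, the receptor that MUC1 binds, rose with hypoxia in siControl (0.58, adjusted p 2.26e-05) and fell with siARNT in normoxia (-0.68, adjusted p 1.14e-05) and hypoxia (-1.01, adjusted p 2.16e-07). Hypoxia in siControl raised 2 of the 15 (median 0.13), and siARNT in hypoxia raised 3 and lowered 3, beside 25.3% and 29.1% of all tested genes called. EGFR also rose with hypoxia in siARNT (0.26, adjusted p 0.0295), a call kept in 7 of 15 alternatives. Of 15 tested transcription factors listed as mucin regulators, hypoxia in siControl raised 5 and lowered 2, and siARNT in hypoxia raised 1 and lowered 6 (medians 0.21 and -0.16), beside the same shares of all tested genes. KLF5 was among the latter (-1.15, adjusted p 4.01e-06), as was the intestinal factor CDX2 (-1.01, adjusted p 0.000254).

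Splicing events were listed for 2 of the 8 genes, 19 for MUC1 and 6 for MUC13, and 14 of these 25 had enough reads to be tested. Of the 14, 0 were called in any of the 5 comparisons by edgeR or by limma. At an unadjusted p under 0.05, edgeR gave 3, 0, 1, 2 and 2 of 14 and limma 4, 0, 1, 2 and 1, first for hypoxia in siControl and in siARNT, then for siARNT in normoxia and in hypoxia, and last for the interaction. Over all 36277 tested events the share called was 0.0386%, 0%, 0.254%, 0.116% and 0% in the same order. The unadjusted edgeR hits for siARNT in hypoxia and for the interaction were MUC13 acceptor choices that share the reads of 1 acceptor. They were also among the hits for hypoxia in siControl, so these counts are not of independent events. The tested mucin events had 26.8 to 834 reads on average, and what size of change that depth could show was not tested.

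The event of lowest p was a choice of acceptor (3′ splice site) in MUC13, at 3:124635164-124639136 in the files' coordinates, whose build is not named. The rarer acceptor had 17, 6 and 19 reads in normoxia siControl, 20, 14 and 18 in normoxia siARNT and 23, 15 and 0 in hypoxia siARNT, and it is listed at 0 in all 3 hypoxia siControl libraries. The main acceptor had 999, 518 and 642 reads in those last libraries. The counts of the rarer acceptor were 0 in 4 libraries and at least 6 in the others, with none from 1 to 5, so a listed 0 may not be a count of 0 reads, which was not tested. The same gap was seen in 5 of the 14 events, among them another MUC13 event with the same reads of this acceptor, while 7 others had counts of 1 to 5. For hypoxia in siControl the unadjusted p was 0.00236 and the adjusted p 0.38 in edgeR. A further acceptor choice at the same place had 22, 7 and 13 rarer reads in normoxia siControl and 13, 11 and 10 in hypoxia siControl. The best-covered MUC1 event, a choice of acceptor at 1:155160198-155160539, had its rarer form listed at 0, with the same doubt, in all libraries except 8 reads in normoxia siARNT replicate B, 14 in hypoxia siControl replicate B and 10 in hypoxia siARNT replicate A. In MUC1, an exon pair listed as mutually exclusive gave its rarer form in 8, 16 and 7% of reads in normoxia siControl and in 11, 17 and 10% in hypoxia siControl. That pair was chosen after its values were seen. The other 7 tested MUC1 events had 1 form in at least 88% of reads in every library.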

How the data were processed

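RNA of 12 AsPC-1 samples was analysed from the deposited gene counts, which are whole reads per gene ID. Per the submitters' processing notes the tools included Trimmomatic and STAR 2.4.2a, and the build named is GRCh38.p10. The counter's settings and the event caller are not given in the sources used here. Lines naming no gene (22.71 to 25.2% of reads) were left out. Deposited event files give junction read counts and the intron coverage signal, with the inclusion share as a fraction, per the file headers. Their coordinates do not lie at GRCh38 positions and were not converted. Gene IDs were matched to GENCODE 29 without their version numbers, for exon length, GC content and exon overlaps. The annotation behind the gene counts is not named in the sources used here and may differ from it. Levels per kb, GC corrections and overlaps carry that uncertainty.

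Counts were tested with edgeR 4.0.16 in R 4.3.3 (TMM scaling, filterByExpr, quasi-likelihood fits to all 12 samples, Benjamini-Hochberg adjustment over all genes, calls at an adjusted p under 0.05). Events were tested with inclusion and exclusion counts in 1 edgeR model with the dispersion set to 0 and the quasi-dispersion taken from the replicates. Both were run on simulated data with known changes, the outcome of which is not given here. In the simulated events low junction counts were not set to 0, as they may be in the event files. DESeq2 1.42.0, limma 3.58.1 and the settings of the closing section were alternatives. Replicates of a group were separate samples per the labels. The members and lists were chosen with earlier results of these data known. All members, and at most 4 called genes with the largest change per list and comparison at a mean of at least 1 CPM, could be named, along with the 3 genes most like each called member and the 2 best-covered tested events per gene.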

Additional observations from a re-analysis of the deposited data

Results flagged for a closer look

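For some genes the hypoxia change differed between siARNT and siControl by the interaction test itself (edgeR, adjusted p under 0.05, log2 hypoxia change of siARNT cells less that of siControl cells). Among the mucins this was MUC1, at -1.21 (adjusted p 0.000955), in a test that called 4.69% of all tested genes. Of the other genes, at most the 4 with the largest difference are named per list. They were GALNT10 at 0.86, TFF3 at -2.56, TFF2 at -2.35, SYTL2 at 0.83, FOXA1 at 0.83, EGFR at -0.32, KLF5 at -0.70 and PPARG at -0.39. The mucus and goblet-type list held 5 called genes, of which those 4 are TFF3, TFF2, SYTL2 and FOXA1. Of the 12 HIF targets 11 were called, all with a lower hypoxia change in siARNT, and the 4 with the largest difference were ANGPTL4 at -3.87, CA9 at -3.02, PFKFB4 at -2.99 and EGLN3 at -2.57. The calls of EGFR and PPARG were kept in 7 and 9 of 20 alternatives. FOXA1 kept its call in 14 of 20, and MUC1, SYTL2 and KLF5 in 18 of 20. MUC1 lost its call with the GC correction, both with and without the replicate block. GALNT10, TFF2, TFF3 and the 4 HIF targets named were called in all 20.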

How the results depend on the processing

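Counts of mucins called moved as follows. For hypoxia in siControl (1 as reported, MUC1) there were 2 with only the samples compared (MUC1 and MUC5B). There were 3 with the GC correction, which were MUC4, MUC5B and MUC13 and not MUC1. There were 4 with the median GC of transcripts and 4 with the GC correction and replicate block, MUC1 and those 3. With a library left out 1 to 2 were called, MUC1 each time. For hypoxia in siARNT (1) there were 0 with only the samples compared, with the well as a block or at a log2 change of at least 1, 2 with the median GC, and 0 to 1 with a library left out. For siARNT in normoxia (3) there was 1 at a log2 change of at least 1 (MUC5B) and 1 to 2 with a library left out. MUC4 was lost with DESeq2 and with only the samples compared. With no filter on low counts MUC4 and MUC5B were lost and MUC2 was added. MUC1 was added with the median GC and with the GC correction and replicate block. For siARNT in hypoxia (3) there were 3 with any library left out. For the interaction (1, MUC1) there were 2 with the median GC (MUC1 and MUC5B). With the GC correction, with and without the replicate block, the called member was MUC5B and not MUC1. Same-letter correlations ran from -0.431 to 0.529, with the best match in 15 of 36, and the negative ones all involved hypoxia siARNT. Among the other groups they ran from 0.072 to 0.529, so whether the replicate letters pair the samples is not settled. Hypoxia siARNT replicate C correlated with replicate B of the other groups at 0.38, 0.626 and 0.486. With their replicate C it correlated at -0.174, -0.431 and -0.333. The letter and well blocks may therefore join unlike libraries in hypoxia siARNT, which limits the settings that use them. With the letter as a replicate block 1, 1, 3, 3 and 1 mucins were called.

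Over all genes the counts in the same order (hypoxia in siControl and in siARNT, then siARNT in normoxia and in hypoxia, then the interaction) were 4299, 696, 3431, 4948 and 797. With the GC correction they were 7186, 3647, 5495, 7796 and 3088, with the median GC 7083, 3565, 5420, 7847 and 2978, with the GC correction and replicate block 7435, 3888, 5865, 8063 and 3342, and at a log2 change of at least 1 they were 483, 100, 447, 756 and 178. For hypoxia in siARNT there were 22 with only the samples compared and 136 with the well as a block. For the interaction there were 373 with the well as a block and 1495 with total count scaling, which also moved the median of all genes to 0.104 for siARNT in hypoxia. With 1 library left out the counts ran from 2873 to 3805 for hypoxia in siControl, 3537 to 4519 for siARNT in hypoxia, 129 to 454 for hypoxia in siARNT, 1571 to 3437 for siARNT in normoxia and 272 to 1188 for the interaction.

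No mucin event was called under any alternative. Over all events (14, 0, 92, 42 and 0) the replicate block gave 296, 51, 429, 205 and 12, and limma 11, 11, 13 and 19 for the last 4. With 1 library left out they ran from 0 to 19, 0 to 3, 8 to 46, 8 to 37 and 0 to 5. 

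Directions that turned were all of changes not called. MUC5AC turned for siARNT in normoxia with the GC correction (-0.39), with the median GC (-0.37), with the GC correction and block (-0.37), and without normoxia siControl replicate B (-0.00055) or normoxia siARNT replicate B (-0.003; up to 0.18 without another library), for siARNT in hypoxia without hypoxia siARNT replicate C (0.06; down to -0.37), and for the interaction with the GC corrections (0.24, 0.23 and 0.23). MUC13 turned for the interaction with each GC correction (-0.06) and without hypoxia siARNT replicate A (-0.04; up to 0.16). MUC20 turned with the GC correction and with it and the block for hypoxia in siARNT (0.01 and 0.03) and siARNT in normoxia (-0.08 and -0.08). MUC5B turned for hypoxia in siARNT without normoxia siARNT replicate B (0.19; down to -0.75) and for siARNT in hypoxia without hypoxia siARNT replicate C (-0.10; up to 0.66). MUC1 turned for siARNT in normoxia without normoxia siARNT replicate C (0.08; down to -0.18). The cause was not tested.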
